A study of Homo sapiens with 6 samples.

Results

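The replication-dependent histone genes were examined in human oral squamous cell carcinoma (OSCC) cells after knockdown of DLEU1, a long noncoding RNA. The genes were taken as every array probe, other than control probes, whose gene name began with HIST1H, HIST2H, HIST3H or HIST4H, which gave 84 of 50599 probes and 70 of 36337 gene names. The linker histone H1 had 6 probes of 6 genes, H2A 20 probes of 17 genes, H2B 25 probes of 19 genes, H3 14 probes of 13 genes and H4 19 probes of 15 genes. RNA came from 3 established OSCC lines, HSC-3, KON and Ca9-22, each transfected by lipofection with a control siRNA (siCtrl) or with siDLEU1-2, an siRNA against DLEU1, and harvested after 72 h. All 6 samples were therefore transfected cells, and there was 1 array for each line and siRNA, so that the 3 lines were the replicates of the knockdown and the 2 arrays of a line were the replicates of its level. Since a single siRNA sequence against DLEU1 was arrayed, loss of DLEU1 and any other action of that sequence cannot be told apart.

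Core histones H2A, H2B, H3 and H4 form the octamer around which DNA is wound, and H1 binds the linker DNA between nucleosomes. The replication-dependent genes supply the bulk of these proteins as DNA is copied, and their mRNAs accumulate in S phase and are degraded when it ends. Most of these mRNAs end in a conserved stem-loop, bound by SLBP, instead of a poly(A) tail, although longer polyadenylated transcripts of some of the genes are known. The labeling kit primes cDNA from poly(A), so the levels given here are those of copies that carry or contain such a tract. The share of the stem-loop transcripts that entered the measurement was not tested. In bulk RNA, fewer cells in S phase and less histone RNA per S-phase cell cannot be told apart.

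Of the 70 genes, 56 belong to the HIST1 cluster on chromosome 6. Their promoter elements are shown first, by family, since the results below follow the same order. Of the 70 genes, 63 had a promoter sequence in the RefSeq set for GRCh38.p14 (250 bases before the start site and 50 after it). The letters AAACACA, the H1 box of linker histone promoters, were present on either strand in 6 of 6 H1 promoters (100%), in 1 of 15 H2A, in 0 of 18 H2B, in 1 of 11 H3 and in 0 of 13 H4 promoters, compared with 5.76% of all 27305 promoters. The octamer ATTTGCAT, a binding sequence of POU-domain factors, was found in 14 of 18 H2B promoters (77.8%) and in 11 of 15 H2A promoters (73.3%), compared with 1.8% of all promoters. CCAAT was present in all promoters of H1, H2A, H2B and H3 in this set, but in 3 of 13 for H4 (23.1%), and in 35.7% of all promoters. TATAAA was present in 41 of 63 histone promoters (65.1%) and in 12.0% of all promoters. Matches to different motifs did not overlap in any histone promoter (0 overlaps among 240 matches). These are matches of letters, and occupancy by a factor was not measured here.

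**Figure D1:**
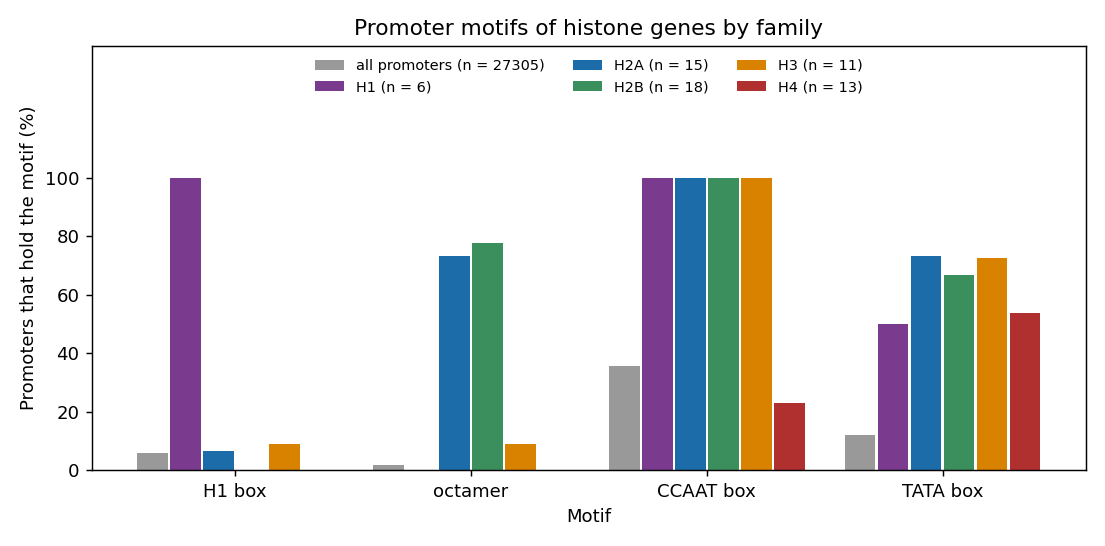
Percentage of RefSeq promoters (y axis) that hold each of 4 motifs (x axis) on either strand, for all promoters (gray) and for the promoters of each histone family (n in the key). The H1 box is in 100% of H1 promoters and 5.76% of all promoters, and the octamer is in 77.8% of H2B and 73.3% of H2A promoters and in no H1 or H4 promoter of the set.

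The 160 bases directly before the start site are given for the 5 H1 genes that were detected, for 2 H2B genes with the octamer and for an H4 gene, 5′ to 3′ on the gene's own strand with GRCh38.p14 coordinates. Capitals mark the 4 motifs on either strand. In HIST1H1B, HIST1H1C, HIST1H1D and HIST1H1E an H1 box on the gene's strand starts 117 to 119 bases before the start site. The only match of HIST1H1A is on the opposite strand, 183 bases before the start site and outside the stretch shown, as are second matches of HIST1H1B (226 bases, same strand) and HIST1H1C (242 bases, opposite strand). HIST1H4E held none of the 4 motifs in this stretch.
HIST1H1A (chr6:26017788-26017947, minus strand): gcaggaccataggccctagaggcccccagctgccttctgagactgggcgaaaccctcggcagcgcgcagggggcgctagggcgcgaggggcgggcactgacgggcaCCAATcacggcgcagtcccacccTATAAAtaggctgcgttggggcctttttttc
HIST1H1B (chr6:27867589-27867748, minus strand): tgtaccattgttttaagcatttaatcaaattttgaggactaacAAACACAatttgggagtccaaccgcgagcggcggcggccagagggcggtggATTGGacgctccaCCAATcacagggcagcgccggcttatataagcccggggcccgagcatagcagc
HIST1H1C (chr6:26056471-26056630, minus strand): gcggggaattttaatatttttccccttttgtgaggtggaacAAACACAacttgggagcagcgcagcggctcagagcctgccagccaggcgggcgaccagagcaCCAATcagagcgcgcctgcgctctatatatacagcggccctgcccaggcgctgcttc
HIST1H1D (chr6:26234988-26235147, minus strand): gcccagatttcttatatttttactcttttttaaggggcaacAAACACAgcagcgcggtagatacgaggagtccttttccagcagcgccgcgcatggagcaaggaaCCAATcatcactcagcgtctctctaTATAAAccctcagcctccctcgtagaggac
HIST1H1E (chr6:26156169-26156328, plus strand): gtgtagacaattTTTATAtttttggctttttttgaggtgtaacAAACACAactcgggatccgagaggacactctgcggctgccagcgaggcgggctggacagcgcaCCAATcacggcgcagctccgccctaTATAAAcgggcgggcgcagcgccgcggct
HIST1H2BH (chr6:26251454-26251613, plus strand): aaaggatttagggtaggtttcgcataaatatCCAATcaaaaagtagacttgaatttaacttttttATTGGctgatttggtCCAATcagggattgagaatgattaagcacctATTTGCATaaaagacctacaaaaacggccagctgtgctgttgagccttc
HIST1H2BK (chr6:27146859-27147018, minus strand): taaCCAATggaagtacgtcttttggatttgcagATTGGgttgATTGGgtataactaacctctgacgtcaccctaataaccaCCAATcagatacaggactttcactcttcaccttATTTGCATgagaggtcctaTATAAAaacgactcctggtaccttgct
HIST1H4E (chr6:26204450-26204609, plus strand): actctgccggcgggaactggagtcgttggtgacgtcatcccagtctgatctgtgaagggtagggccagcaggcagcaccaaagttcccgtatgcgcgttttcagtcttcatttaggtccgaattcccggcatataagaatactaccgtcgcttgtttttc

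The arrays were similar in brightness. The 75th percentile of the processed signal ranged from 201 to 257 over the 6 arrays, the share of probes well above background from 43.0% to 45.7%, and 0 spots were saturated. The DLEU1 probe fell in every line, by 4.10, 3.63 and 3.44 on the log2 scale in HSC-3, KON and Ca9-22 (limma, mean fell by 3.72, SE 0.18, adjusted p = 0.0227). Of 8 squamous epithelial marker genes, 7 were well above background on all 6 arrays and TP63 on 5. After knockdown 3 of the 10 marker probes tested were called lower by limma (30%, against 4.52% of all probes) and 1 higher (against 3.97%). TP63, KRT6A and SFN fell (mean log2 fold change -2.46, -1.33 and -0.81) and CDH1 rose (2.92). Of the markers of other cell types, 4 of 5 fibroblast genes were not well above background on any array, while COL1A1 was on all 6 and rose after knockdown (mean log2 fold change 1.45, SE 0.25, adjusted p = 0.0423). The leukocyte marker CD14 was also well above background on all 6 arrays, with differences of 0.43, 0.51 and 0.58 in HSC-3, KON and Ca9-22 (adjusted p = 0.0867). Of the endothelial markers, a probe each of CDH5 and VWF was well above background on 5 arrays and not called (mean 1.15 and 0.93, adjusted p = 0.113 and 0.252), and KDR was on none. The part of these markers in the histone values was not tested.

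Expression of the histone genes was broad. Detection above background was complete (6 of 6 arrays) for 70 of the 84 probes, partial for 5 and absent for 9. The 9 belonged to HIST1H1T, the testis-specific H1, to HIST1H2AA and HIST1H2BA, which are likewise known from testis, to HIST1H2APS1, HIST1H4G and HIST2H4A, to HIST2H2BA with 2 probes, and to 1 of the 4 probes of HIST2H2BF. The knockdown was tested on the 73 histone probes (63 genes) detected above background on 1 or more arrays of every line, and all p-values were adjusted over the 19956 probes of the array that met this condition. Levels below are log2 values relative to the 75th percentile of each array, and changes are log2 fold changes of siDLEU1-2 over siCtrl.

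After DLEU1 knockdown, the linker histone gene HIST1H1D was the only histone gene that passed the test, and it fell. In the limma test with cell line as a block, 1 of 73 histone probes (1.37%) was called lower and 0 higher, whereas 4.52% of all probes tested were called lower and 3.97% higher. The same probe was the only one that was over 2-fold lower in all 3 lines, a criterion met by 2.08% of all probes. At an unadjusted p under 0.05, 13 histone probes (17.8%) were lower and 0 higher, compared with 14.9% of all probes that were lower and 14.6% that were higher. These were 6 H3, 2 H1, 2 H2A, 2 H2B and 1 H4 probes.

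The direction of the differences was mostly downward. The mean over the 3 lines was lower after knockdown for 71 of 73 histone probes (97.3%), compared with 49.2% of all probes, and the exceptions were the chromosome 1 genes HIST3H2A and HIST3H2BB. The median log2 fold change of the histone probes was -0.33, whereas that of all probes was 0.01. The lines contributed unequally: the median was -0.43, -0.04 and -0.78 in HSC-3, KON and Ca9-22, beside 0.00, 0.02 and -0.01 for all probes. In Ca9-22, 69 of 73 histone probes were lower (94.5%, against 50.6% of all probes). The number was 53 for HSC-3 (72.6%, against 50.2%) and 41 for KON (56.2%, against 48.6%). A decrease of over 2-fold was found for 14 histone probes in Ca9-22 (19.2%, against 6.46% of all probes), for 9 in HSC-3 (12.3%, against 6.69%) and for 1 in KON (1.37%, against 7.29%). In HSC-3 and Ca9-22 alike, 50 of 73 were lower (68.5%, against 36% of all probes), but in all 3 lines only 21 (28.8%), which is near the 26.7% of all probes. Without KON the median was -0.56 and without Ca9-22 it was -0.18. Because histone probes share sequence and are expressed together, these counts are not independent observations.

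**Figure D2:**
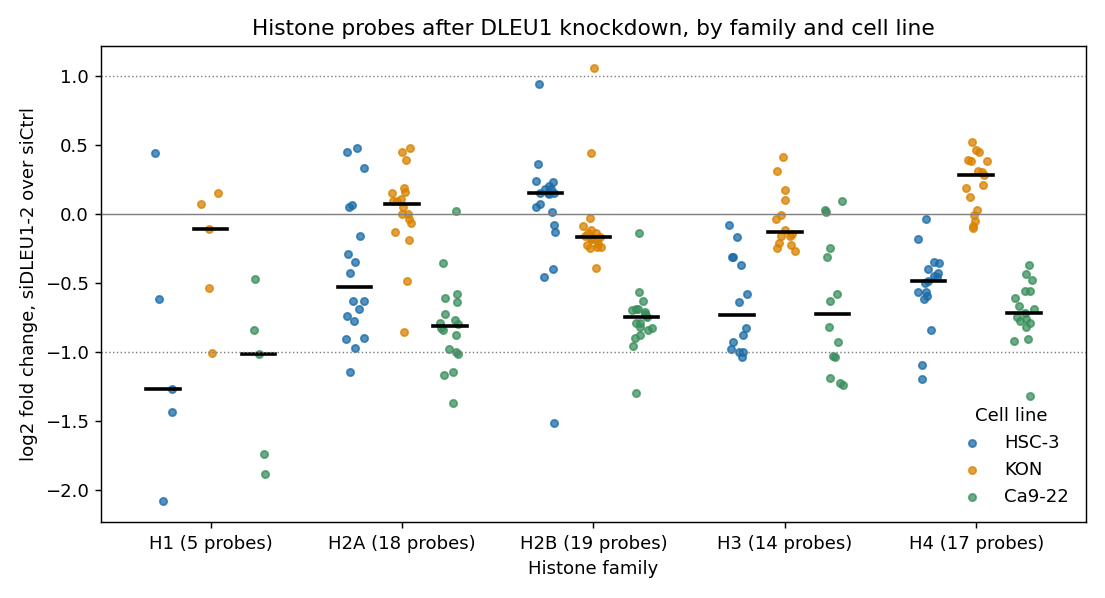
Log2 fold change of siDLEU1-2 over siCtrl (y axis) for each of the 73 histone probes tested, by histone family (x axis) and cell line (color). Each point is 1 probe on 1 pair of arrays, black bars are medians, and dotted lines mark 2-fold. Ca9-22 medians lie between -1.02 and -0.72 in every family, KON medians between -0.17 and 0.28, and the HSC-3 median of H2B (0.15) is the only HSC-3 median above 0.

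The linker histones showed the lowest family median, -0.71 for the mean over lines (5 probes, medians of -1.27, -0.11 and -1.02 in HSC-3, KON and Ca9-22). It was -1.15 without KON, and without HSC-3 it was -0.43, where the H2B median was lower at -0.46. H1 proteins bind where DNA enters and leaves the nucleosome. The probes of the 2 genes with the lowest means cover coding sequence that is open in at least 1 reading frame over all 60 bases, and are shown 5′ to 3′ with hg19 coordinates from the array files.
HIST1H1D (chr6:26234699-26234758, minus strand): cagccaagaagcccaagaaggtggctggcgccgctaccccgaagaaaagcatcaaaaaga
HIST1H1A (chr6:26017351-26017410, minus strand): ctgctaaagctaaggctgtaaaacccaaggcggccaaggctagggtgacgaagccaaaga

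HIST1H1D, which encodes the H1.3 linker histone, went from 1.74 to 0.30 in HSC-3, from 3.03 to 2.02 in KON and from 4.17 to 2.28 in Ca9-22. Each siDLEU1-2 value was below the siCtrl value of its line, although the groups overlapped across lines because the lines started from different levels. The gene fell 2.71-fold, 2.01-fold and 3.7-fold (mean log2 fold change -1.44, SE 0.21, adjusted p = 0.0323). The decrease in KON was barely over 2-fold, and the call was lost when any of the lines was left out (adjusted p = 0.113 without HSC-3, 0.106 without KON and 0.082 without Ca9-22) and with no filter on dim probes (adjusted p = 0.154). Without HSC-3, without KON or with no filter, no probe of the whole array was called.

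HIST1H1A, which encodes H1.1, went from 2.54 to 0.46 in HSC-3, from 1.74 to 1.19 in KON and from 3.87 to 2.13 in Ca9-22. Its mean of -1.45 was as low as that of HIST1H1D, but its lines differed more and it did not pass the test (SE 0.33, adjusted p = 0.0666). It did pass, together with HIST1H1D, with normexp background correction, with probes restricted to those detected on all 6 arrays, and with a trended variance prior. HIST1H1B (H1.5) went from 1.46 to 0.19 in HSC-3 and from 2.21 to 1.19 in Ca9-22, but from 2.26 to 2.41 in KON (mean -0.71, SE 0.32, adjusted p = 0.218). HIST1H1E (H1.4) was likewise lower in HSC-3 and Ca9-22 but not in KON, with differences of -0.62, 0.07 and -0.84 (adjusted p = 0.245). HIST1H1C (H1.2) went from 4.76 to 5.20 in HSC-3, from 4.53 to 4.42 in KON and from 5.55 to 5.07 in Ca9-22 (mean -0.05, SE 0.22, adjusted p = 0.910). The promoters of all 5 genes hold the letters of the H1 box, that of HIST1H1A only on the opposite strand. Differences between the genes were not tested.

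**Figure D3:**
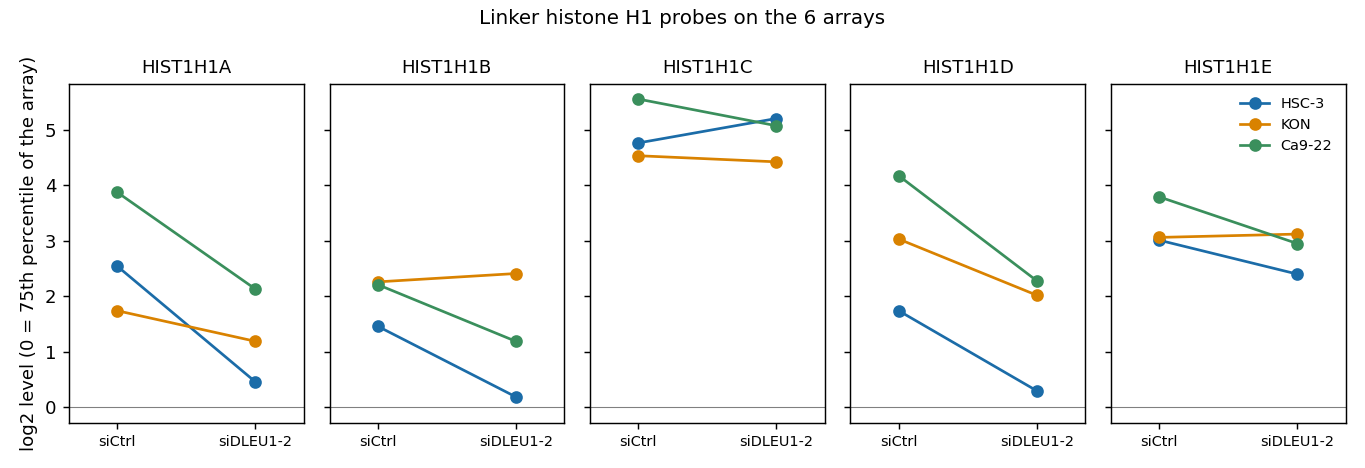
Log2 level relative to the array's 75th percentile (y axis) of the 5 detected H1 probes in siCtrl and siDLEU1-2 cells (x axis), with a line joining the 2 arrays of each cell line. HIST1H1D slopes down in all 3 lines (-1.44, -1.01 and -1.89), HIST1H1B and HIST1H1E slope down in HSC-3 and Ca9-22 but not in KON, and HIST1H1C goes up in HSC-3 (0.44).

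H2A and H2B pair as a dimer in the nucleosome. The medians of their probes had opposite signs in HSC-3 and in KON, and the difference between the families was not tested. The H2A median was -0.53, 0.07 and -0.81 in HSC-3, KON and Ca9-22, with 13, 7 and 17 of 18 probes lower. The H2B median was 0.15, -0.17 and -0.75 in HSC-3, KON and Ca9-22, with 5, 17 and 19 of 19 probes lower. No H2A or H2B probe passed the test (lowest adjusted p = 0.119 and 0.102). Among H2A genes, HIST2H2AC had the lowest mean. It went from 3.61 to 2.70 in HSC-3, from 3.14 to 2.94 in KON and from 4.18 to 2.82 in Ca9-22 (mean -0.82, SE 0.26, adjusted p = 0.119), so that all 3 knockdown values were below all 3 control values. The mean closest to 0 was that of HIST1H2AE, with differences of -0.16, 0.11 and -0.58 (mean -0.21, adjusted p = 0.503). HIST3H2A was the only one of the 73 histone probes tested that was higher in all 3 lines (1.37%, against 26.8% of all probes), by 0.48, 0.39 and 0.02 (mean 0.30, SE 0.16, adjusted p = 0.289).

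In HSC-3, 14 of 19 H2B probes were above their control level. Leaving out HIST3H2BB, the other 13 of these lay between 0.01 and 0.36 in HSC-3, between -0.25 and -0.03 in KON and between -0.88 and -0.57 in Ca9-22. HIST1H2BE stood apart from them. It went from -1.48 to -3.0 in HSC-3, from -0.95 to -1.18 in KON and from -0.08 to -1.37 in Ca9-22 (mean -1.01, SE 0.29, adjusted p = 0.102). HIST1H2BF was also lower in HSC-3, by -0.46, and was higher in KON, by 0.44. The other H2B probes lower in HSC-3 were those of HIST2H2BE (-0.40), HIST1H2BB (-0.13) and HIST1H2BJ (-0.08). The probes of HIST1H2BE and HIST1H2BF were the only H2B probes that contain the histone stem-loop itself, a feature of 6 of the 84 histone probes and of 7 of 50599 probes on the array. The 6 stem-loop probes had differences between -1.52 and -0.46 in HSC-3, between -0.23 and 0.48 in KON and between -1.30 and -0.70 in Ca9-22. HIST3H2BB was the only one of the 73 histone probes tested that was over 2-fold higher in any line. That is 1.37% in KON and 0% in HSC-3 and Ca9-22, against 7.3%, 7.53% and 6.56% of all probes. HIST3H2BB was at 1.06 in KON and 0.94 in HSC-3, with -0.14 in Ca9-22 (mean 0.62, SE 0.28, adjusted p = 0.230).

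The likeness of the H2B values has to be read beside the likeness of the probes. Among all pairs of histone probes for different genes, 9 pairs of 12 probes were at least 90% identical over at least 40 bases, 4 pairs in H2B, 5 in H4 and 0 between families. Examples are the coding probes of HIST1H2BK, HIST1H2BD and HIST1H2BC, where capitals mark bases that differ from the HIST1H2BK probe within the overlap (4 of 55 bases for HIST1H2BD and 5 of 51 for HIST1H2BC).
HIST1H2BK (chr6:27114437-27114496, minus strand): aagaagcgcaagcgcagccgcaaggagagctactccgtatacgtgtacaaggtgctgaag
HIST1H2BD (chr6:26158474-26158533, plus strand): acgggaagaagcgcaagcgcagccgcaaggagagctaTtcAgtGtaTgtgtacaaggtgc
HIST1H2BC (chr6:26123983-26124042, minus strand): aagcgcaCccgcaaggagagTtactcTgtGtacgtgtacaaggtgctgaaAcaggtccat
Their differences were 0.15, -0.18 and -0.82 for HIST1H2BK, 0.18, -0.24 and -0.69 for HIST1H2BD, and 0.36, -0.25 and -0.83 for HIST1H2BC, in the order HSC-3, KON and Ca9-22. Transcripts of 1 gene can therefore contribute to the signal of another, and how much they did was not tested. Without the 12 near-identical probes the median over all histone probes was -0.38. Probes were compared with each other only, not with the transcripts of other genes, so shared signal can remain in that median.

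Genes with several probes (11 genes, 25 probes) allowed a comparison within a gene. HIST1H2BK has a second probe 8246 bases from the coding probe above, and its differences were 0.23, -0.14 and -0.57 (mean -0.16, SE 0.20, adjusted p = 0.636). HIST1H2AC has 2 probes 58 bases apart and 1 more that lies 14361 bases from the nearer of them. The distant probe gave 0.45, -0.86 and -0.36, whereas the close ones gave 0.06, -0.07 and -1.0, and -0.29, 0.15 and -0.84, so the means were alike (-0.26, -0.33 and -0.32) while the lines were not. The largest gaps between the means of probes of 1 gene that were both tested were 0.41 for HIST1H4A and 0.41 for HIST1H4L, whose probes start 26 and 105 bases apart. The dimmer HIST1H4A probe was not well above background on the siDLEU1-2 array of HSC-3. The probes of HIST1H3H, HIST1H4D and HIST1H2AM differed in mean by at most 0.09.

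H3, with H4, forms the tetramer at the core of the nucleosome, and most of its probes were lower after knockdown. Its median was -0.73, -0.13 and -0.73 in HSC-3, KON and Ca9-22, and 14, 10 and 11 of 14 probes were lower. HIST1H3F went from 2.98 to 1.99 in HSC-3, from 3.87 to 3.64 in KON and from 4.38 to 3.15 in Ca9-22 (mean -0.82, SE 0.24, adjusted p = 0.104). HIST1H3D, HIST1H3H and HIST1H3J were close to it, with means of -0.79, -0.76 and -0.64 (adjusted p = 0.101, 0.127 and 0.110). By contrast, HIST1H3A went from 5.24 to 5.17, from 4.55 to 4.51 and from 4.30 to 4.33 (mean -0.03, SE 0.13, adjusted p = 0.917), and HIST3H3 differed by -0.17, -0.15 and 0.09. No H3 probe passed the test.

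H4 probes split by cell line. All 17 were lower in HSC-3 and all 17 in Ca9-22, but only 4 in KON, and the medians were -0.49, -0.72 and 0.28. The lowest mean was that of a HIST1H4A probe detected on 5 of 6 arrays, with differences of -1.20, 0.52 and -1.32 (mean -0.66, SE 0.41, adjusted p = 0.349). Its siDLEU1-2 value in HSC-3 was not well above background, so the -1.20 and the mean rest on a background value. Among probes detected on all 6 arrays the lowest mean was that of the dimmer HIST1H4L probe, which went from -1.72 to -2.82 in HSC-3, from -0.11 to 0.01 in KON and from 0.29 to -0.63 in Ca9-22 (mean -0.63, SE 0.28, adjusted p = 0.218). HIST1H4E went from 4.12 to 4.08, from 4.46 to 4.91 and from 4.59 to 4.03 (mean -0.05, SE 0.23, adjusted p = 0.917). The lowest adjusted p in the family was 0.167. HIST4H4, on chromosome 12 and away from the main clusters, differed by -0.57, -0.01 and -0.91, and its probe was not well above background on the siDLEU1-2 array of Ca9-22.

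Genes that handle histones or accompany DNA replication were set beside them. Of 16 genes for histone pre-mRNA processing and transcription, 14 were tested with 17 probes and 0 probes were called in either direction, beside the 4.52% lower and 3.97% higher over all probes. SLBP, which binds the stem-loop, differed by 0.27, 0.66 and 0.57 (mean 0.50, SE 0.15, adjusted p = 0.113), and NPAT, the coactivator of histone loci, by -0.36, -0.03 and 0.29 (mean -0.03, adjusted p = 0.935). All 20 genes of histone chaperones and acetylation were tested with 32 probes, and 0 were called. Of 14 replication-independent variant genes, 10 were tested with 14 probes and 0 were called. Within that list H2AFX, the H2A variant phosphorylated at DNA breaks, came closest to the threshold at -0.95, -0.53 and -0.73 (mean -0.74, SE 0.15, adjusted p = 0.0563). The centromeric H3 variant CENPA had a mean of -0.68 (adjusted p = 0.113) and H2AFZ a mean of -0.32 (adjusted p = 0.225). The 4 probes of H3F3A, which encodes the H3.3 variant, had means between 0.00 and 0.17, and the 2 probes of H3F3B, which encodes the same protein, -0.10 and 0.36.

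S phase genes, 29 probes of 23 genes, had medians of -0.24, 0.64 and 0.13 in HSC-3, KON and Ca9-22, beside the histone medians of -0.43, -0.04 and -0.78. KON was highest in both, and the difference between the lists was not tested. PCNA, the sliding clamp of DNA polymerase, was at -0.25 to -0.29, 0.62 to 0.70 and 0.04 to 0.18 by its 3 probes. Of the 29 S phase probes, 4 of 3 genes fell (13.8%, against 4.52% of all probes) and 0 rose (against 3.97%). CDK2, the kinase partner of cyclins E and A, fell by 1.94, 1.68 and 1.72 (mean log2 fold change -1.78, adjusted p = 0.0227). MCM7, a subunit of the replicative helicase, fell by 1.10 and 1.20 on average by its 2 probes (adjusted p = 0.0298 for each), and CDC45, which joins that helicase, fell by 1.06 (adjusted p = 0.0316). The probes of MCM2 to MCM6 went the other way, with means between 0.21 and 0.81, as did CDC6 (1.32) and CDT1 (0.88), and none of these was called. Among 10 retinoblastoma and histone locus regulators, tested with 12 probes, 1 probe was called lower (8.33%, against 4.52% of all probes) and 0 higher (against 3.97%). It was that of RBL2, a pocket protein that represses cell cycle genes, which fell by 1.05 (adjusted p = 0.0468). The part of the S phase share of cells in the histone values was not tested.

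**Figure D4:**
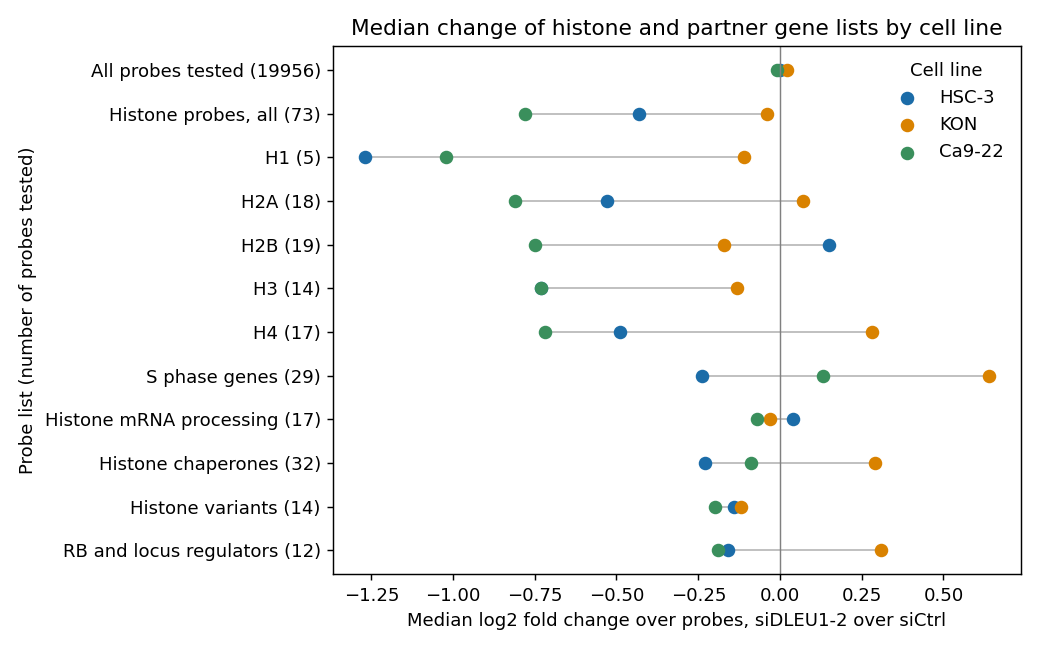
Median log2 fold change of siDLEU1-2 over siCtrl (x axis) over the probes of each list (y axis, number of probes tested in parentheses), with 1 point per cell line; the HSC-3 and Ca9-22 points of H3 coincide. Histone families lie left of 0 in Ca9-22, and the S phase genes lie at 0.13 in Ca9-22 and 0.64 in KON.

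Levels were also compared between the lines, over both siRNAs. Each line's level averages 1 siCtrl and 1 siDLEU1-2 array, and fitting the siRNA takes out only a change shared by the lines. A change that differs between lines, such as the H2B medians of 0.15 in HSC-3 and -0.75 in Ca9-22, therefore enters the line differences. With siRNA as a term, a limma F test called 26 of 75 histone probes (34.7%) different between lines, compared with 51% of all 24517 probes tested. H2B contributed 13 of its 21 probes, H3 6 of 14, H2A 4 of 18, H4 2 of 17 and H1 1 of 5. Histone probes were called higher in HSC-3 than in KON for 11 probes (14.7%, against 16.6% of all) and lower for 8, when 17.9% of all probes were. They were higher in HSC-3 than in Ca9-22 for 15 (20%, against 18.8%) and lower for 13 (17.3%, against 15.7%). Between KON and Ca9-22, 0 histone probes were called higher in KON (against 18.7% of all probes) and 4 lower (5.33%, against 14.3%), of which 2 were detected on all 6 arrays. The shares were thus near or below those of the whole array. The number called ranged from 4 to 22 when any single array was left out.

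H2B was the family that was higher in HSC-3. Its median difference was 1.05 from KON and 1.26 from Ca9-22, while the other families had medians between -0.60 and -0.05 from KON and between -0.99 and -0.33 from Ca9-22. Of its 21 probes, 8 were called higher in HSC-3 than in KON (38.1%, against 16.6% of all probes) and 1 lower (4.76%, against 17.9%). Compared with Ca9-22, 12 were called higher in HSC-3 (57.1%, against 18.8%) and 3 lower (14.3%, against 15.7%). These counts include a HIST2H2BE and a HIST2H2BF probe that were at background in 1 or more lines. Over the 18 H2B probes detected on all 6 arrays, 6 were called higher in HSC-3 than in KON and 1 lower. Against Ca9-22, 12 were called higher and 2 lower, and the median differences were 1.02 and 1.27. Shares of the whole array were not computed for probes detected on all 6 arrays. HIST1H2BK, by the probe 8246 bases from the coding probe, averaged 6.29, 4.96 and 4.30 in HSC-3, KON and Ca9-22 (2 arrays each). Its siCtrl and siDLEU1-2 levels were 6.18 and 6.41 for HSC-3, 5.03 and 4.89 for KON, and 4.58 and 4.01 for Ca9-22, so the lines did not overlap (HSC-3 minus Ca9-22 2.0, SE 0.26, adjusted p = 0.0113; HSC-3 minus KON 1.33, SE 0.26, adjusted p = 0.0258). KON and Ca9-22 were not called different for it (difference 0.66, SE 0.26, adjusted p = 0.120). The coding probe averaged 4.57, 3.50 and 3.08, and HSC-3 was called higher than Ca9-22 (1.5, SE 0.29, adjusted p = 0.0263) but not than KON (1.07, SE 0.29, adjusted p = 0.0551). Beside it, HIST1H2BD differed by 1.44 from either line (SE 0.27, adjusted p = 0.0246 and 0.0239). Each lost its F call in 3 of the 6 fits that left out a single array, with the highest adjusted p, 0.0595 for HIST1H2BK and 0.110 for HIST1H2BD, without the siDLEU1-2 array of HSC-3.

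Other families held single genes with their own order of lines. HIST2H2AA4 averaged 2.66, -0.12 and 0.99 in HSC-3, KON and Ca9-22 (HSC-3 minus KON 2.78, SE 0.30, adjusted p = 0.0085). HIST1H1D averaged 1.02, 2.52 and 3.23 (HSC-3 minus Ca9-22 -2.21, SE 0.27, adjusted p = 0.0104), which placed HSC-3 lowest, with KON and Ca9-22 not called different (adjusted p = 0.120). HIST1H3A averaged 5.20, 4.53 and 4.32 (HSC-3 minus Ca9-22 0.89, SE 0.17, adjusted p = 0.0255), whereas HIST1H3D and HIST1H3F were lower in HSC-3 than in Ca9-22, by 1.25 and 1.28 (HSC-3 minus Ca9-22 -1.25 and -1.28, adjusted p = 0.0385 and 0.0408). HIST1H4L, by its dimmer probe, averaged -2.27, -0.05 and -0.17 (HSC-3 minus KON -2.22, SE 0.36, adjusted p = 0.0181). Its brighter probe averaged 5.37, 6.41 and 6.37 and was not called (HSC-3 minus KON -1.04, SE 0.31, adjusted p = 0.0648). HIST3H2A was higher in Ca9-22, at -0.41, than in HSC-3 and KON, at -1.97 and -1.91 (KON minus Ca9-22 -1.50, SE 0.21, adjusted p = 0.0132). With single arrays left out, the F call was lost in 6 of 6 fits for HIST1H3A (adjusted p 0.0775 to 0.148), in 5 of 6 for HIST1H3D and HIST1H3F (highest 0.179 and 0.198), in 2 for HIST1H1D (0.0585 and 0.0632, without either HSC-3 array) and in 1 for HIST2H2AA4 (0.0545, without the siDLEU1-2 array of KON), HIST1H4L (0.0909, without that of HSC-3) and HIST3H2A (0.0668, without the siCtrl array of Ca9-22). Without siRNA as a term it was also lost for HIST1H1D, HIST1H3D and HIST1H3F (adjusted p = 0.175, 0.16 and 0.172).

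For 2 genes a probe was not well above background on either array of a line. Only bounds are given for them, taking the lowest detected signal of each array as the floor. The probe of HIST2H2BE that starts 1037 bases from its other probe was not well above background on the KON arrays, and was at least 1.74-fold higher in HSC-3 (both arrays detected). In Ca9-22 it was detected on 1 of 2 arrays, and no bound is given. With dim values raised to that floor, its F test gave an adjusted p of 0.136. A probe of HIST2H2BF was well above background on both arrays of Ca9-22 only, and was at least 1.54-fold higher there than in HSC-3 and at least 1.64-fold higher than in KON. With dim values raised to the floor, its F test gave an adjusted p of 0.0518. Both probes entered the line test only through lines where they were high, so the bounds are a description, and their place among the 26 probes called is no support for a difference.

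**Figure D5:**
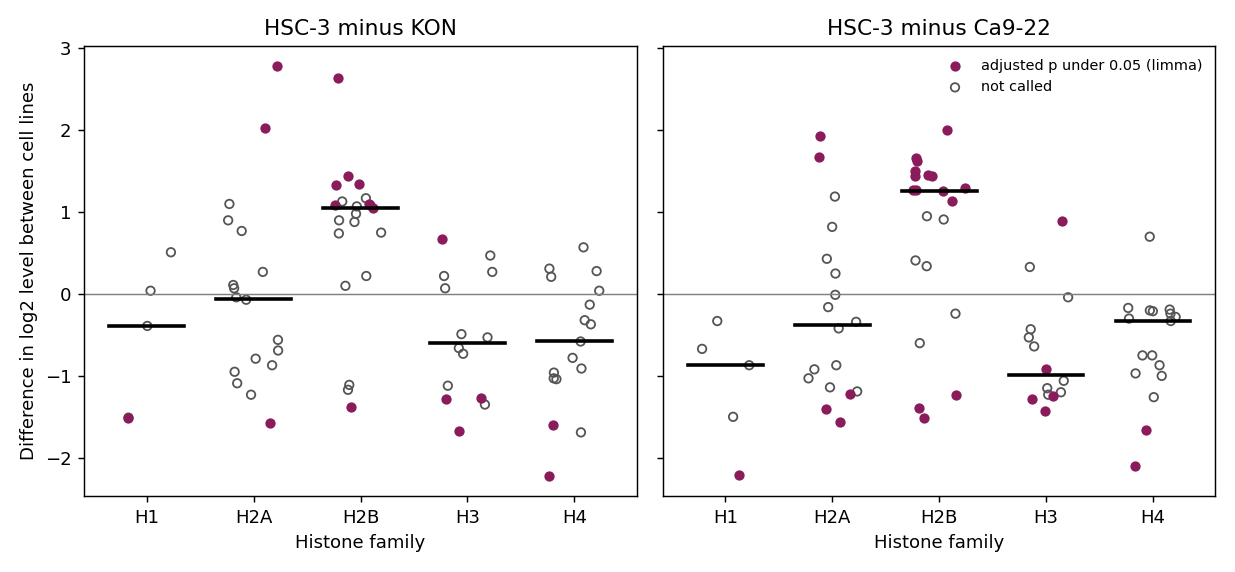
Difference in log2 level between HSC-3 and KON (left) and between HSC-3 and Ca9-22 (right) for the 75 histone probes tested (y axis), by family (x axis). Filled points passed limma's test of that contrast at an adjusted p under 0.05, and black bars are medians, which for H2B are 1.05 and 1.26.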

How the data were processed

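Array signals were measured on total RNA (100 ng, labeled once per sample) of 6 samples, 3 OSCC lines with siCtrl or siDLEU1-2, on Agilent one-color arrays with 60-base probes and hg19 positions. The deposited scanner files hold the processed signal intensity of each spot, background-subtracted by the authors with Agilent Feature Extraction 10.7.3.1. The deposited series table holds intensities of the same arrays that are not log2 values, which differed from the scanner signals by at most 0.497%. After log2 it served as an alternative, on nearly the same values as the main input. GeneSpring GX 13 is named in the methods. Here, outlier spots were left out, spots of a probe were averaged, and log2 intensity was set relative to the array's 75th percentile. Where at least 50% of a probe's spots were flagged well above background, the probe counted as such, and 55 probes that lacked a usable spot on an array were left out. Precision is limited by the number of arrays. All arrays were on 1 slide. Nothing states that cultures were independent, and p-values measure the spread between these samples.

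limma 3.58.1 (R 4.3.3) was fitted over all probes with cell line as a block, after requiring at least 1 detected array per line, and Benjamini-Hochberg adjusted p-values under 0.05 were called. Line levels were fitted with siRNA as a term on probes detected on at least 2 arrays. Both arrays of a line deviated together (correlation 0.83, 0.81 and 0.82 in HSC-3, KON and Ca9-22), and the pairing comes from the cell line labels. With 3 lines, an exact permutation test cannot go below a two-sided p of 0.25. Fits were tested on simulated data. Probes were named if called or over 2-fold in all lines, if of the largest or smallest mean in a family among probes detected on all 6 arrays, if of lowest line p in a family, if detected in a single line, or if a gene had several. A further part of that rule, over 2-fold in opposite directions between lines, named 0 probes. Other named probes (such as HIST1H1B, HIST1H2BC, HIST1H2BD, HIST1H2BF, HIST3H2A, HIST3H2BB, HIST1H3D and HIST4H4) were chosen after their values were seen. Members and lists were chosen with earlier results of these data known. Alternatives covered centering, normalization, background, filters, tests and left-out samples.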

Additional observations from a re-analysis of the deposited data

Results flagged for a closer look

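In 3 families the median log2 fold change had opposite signs in a pair of lines. For H2A probes it was 0.07 in KON against -0.53 in HSC-3 (HSC-3 minus KON, -0.60) and against -0.81 in Ca9-22 (KON minus Ca9-22, 0.88). For H2B probes it was 0.15 in HSC-3 against -0.17 in KON (a gap of 0.32) and against -0.75 in Ca9-22 (a gap of 0.90). For H4 probes it was 0.28 in KON against -0.49 in HSC-3 (HSC-3 minus KON, -0.77) and against -0.72 in Ca9-22 (KON minus Ca9-22, 1.0). Each line has 1 array per siRNA, so these differences between lines were not tested.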

How the results depend on the processing

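With 1 call to begin with, the count of histone probes called for the knockdown moved easily. It was 2 with normexp background correction, with probes detected on all 6 arrays only and with a trended variance prior, HIST1H1A joining HIST1H1D each time. It was 0 with no filter on dim probes (0 calls on the whole array), 0 by the methods' t-test after Benjamini-Hochberg adjustment (1 unadjusted) and 0 without the replicate block, where the pairing by line is dropped. It ranged from 0 to 0 when a line was left out. The adjusted p of HIST1H1D ranged from 0.0179 to 0.883 over the alternatives, the highest without the block. The count of probes over 2-fold in all lines, 1, became 0 at 3-fold and 0 with normexp, and ranged from 1 to 7 over left-out lines, 7 without KON. The median change of -0.33 stayed between -0.56 and -0.18 without a line and between -0.41 and -0.30 otherwise. With no filter the median of all probes was 0.14. The 26 probes that differed between lines became 43 with normexp, 42 with probes detected on all arrays, 8 with no filter and 14 without the siRNA term, and ranged from 4 to 22 without any single array: 4 without the siDLEU1-2 array of HSC-3, and 9 without the siCtrl array of HSC-3 or the siDLEU1-2 array of KON or Ca9-22. Small means changed sign without Ca9-22 for HIST1H1C (0.16), HIST1H2BK (0.04), HIST2H2BF (0.04), HIST1H4A (0.01), HIST1H4E (0.21) and HIST1H4K (0.05), and without KON for HIST1H2AC (0.05). The HSC-3 minus Ca9-22 difference of HIST2H2BE was 0.07 without the siCtrl array of Ca9-22. The causes were not tested. Leaving out near-identical probes was chosen after seeing the data, and left 1 call. Dim probes are limited by background, and levels at or under it have no order.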
